A study of Saccharomyces cerevisiae with 6 samples.

Results

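The nuclear pore complex of baker's yeast is described here through the mRNAs of 33 genes. They are 31 genes of the pore's own proteins and of factors docked to it, and the import receptor pair KAP95 and SRP1, which pass through the pore and are not built into it. The genes were picked out by standard symbol from the 5667 S. cerevisiae loci on the arrays, with no filter on their values. The list itself was drawn up with earlier results of these data known. All 33 were found, each by 1 probe set that matches 1 transcript, and all lay above background on all 6 arrays.

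The arrays measured RNA that was pulled down from UV-crosslinked yeast. The 6 groups are a Mex67 precipitate at 42 °C and at 25 °C (strain HKY1266), an Npl3 precipitate at 42 °C and at 25 °C (strain HKY157), and a precipitate from cells with no tag at 42 °C and at 25 °C (strain label HKY36/HKY381), with 1 array each. All cells had grown in YPD at 25 °C before 30 min at the stated temperature. Every lysate met the same beads, which carried a c-myc antibody or were GFP-Trap, and the labels used here do not say which tag Mex67 or Npl3 carried. The label of the no tag cells names a pair of strains, and whether these were pooled is not stated in the labels.

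The pore is a ring of proteins set in the nuclear envelope through which mRNA leaves the nucleus and proteins enter it. Scaffold nucleoporins form an outer and an inner ring. Other nucleoporins carry stretches rich in phenylalanine-glycine (FG) repeats that fill the channel, and transport receptors bind these repeats as they cross. Mex67, with its partner Mtr2, is the main export receptor for mRNA. At the cytoplasmic face, Nup159, Nup42 and Gle1 act with the helicase Dbp5 in taking Mex67 off the mRNA, and the basket proteins Mlp1 and Mlp2 contact mRNA on the nuclear side. Npl3 is an mRNA-binding protein that joins transcripts in the nucleus.

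Values are log2 values that the authors had normalized across the arrays, so a difference stands in relation to all mRNAs on its array. No group has a replicate, so no difference has a replicate check, and no p-value or SD is given. A gene was called higher or lower when it differed at least 2-fold (1 on the log2 scale) and lay above the floor on at least 1 of the arrays compared. As the floor of an array served the 95th percentile of its fission yeast (S. pombe) probe sets, since no such RNA was in the samples per the labels. It was at most 5.12, while the lowest pore gene on any array, NUP42 in the Npl3 precipitate at 25 °C, was at 8.91. The highest, NUP116 in the Mex67 precipitate at 42 °C, was at 13.70, well below the top of the arrays at 15.36 to 15.43. No array of the input RNA was analysed here, so an mRNA that is more abundant in a strain and an mRNA that is more often bound cannot be told apart.

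Several features of the arrays move with the groups. The control RNAs spiked in for labelling had a median log2 value of 5.01 in the heated Mex67 precipitate and of 5.40 and 5.22 with Npl3 at 42 °C and 25 °C. They were at 6.35 with Mex67 at 25 °C and at 6.64 and 6.65 without a tag at 42 °C and 25 °C. The difference between the 3' and the 5' actin probe sets was 0.82, 1.10 and 1.19 on the arrays with low spikes, and 0.44, 0.43 and 0.41 on those with high spikes. Of 14 mating type and strain marker genes, 5 were called higher and 6 lower in the Mex67 precipitate than in the control at 42 °C, and 6 and 6 at 25 °C, and 6 and 5, then 7 and 3, in the Npl3 precipitate. At 25 °C STE2 was at 13.84 with Mex67 and 13.85 with Npl3, against 8.48 without a tag. STE3 was at 6.53 and 8.06 against 13.41, and MF(ALPHA)1 at 6.10 and 7.53 against 13.93. The control cells thus differed from both tagged strains in mating type genes, and this holds for every comparison with the control. Each strain gave 1 of the precipitates, so strain and precipitated protein cannot be told apart. The column names give temperature as S and US, read as stressed and unstressed, and in each of the 3 pairs all 20 listed heat shock chaperones had the higher value on the S array.

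**Figure D1:**
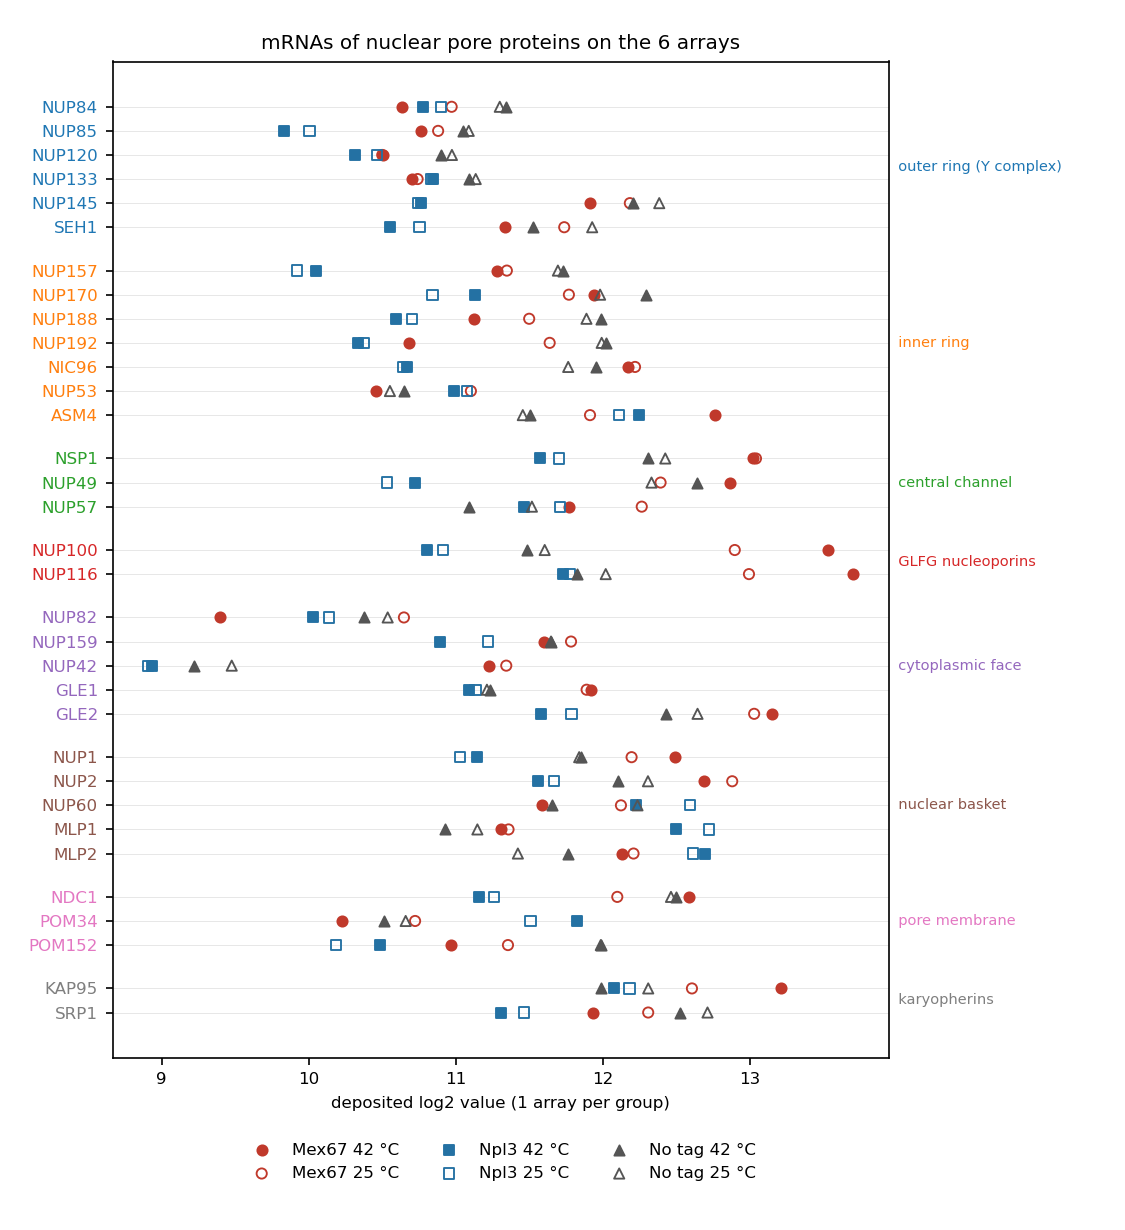
Deposited log2 values of the 33 pore genes (rows, coloured by their place in the pore) on the 6 arrays. Filled marks are 42 °C and open marks 25 °C, and circles, squares and triangles are the Mex67, Npl3 and no tag precipitates. NUP42, NUP100 and NUP116 are highest on both Mex67 arrays, MLP1 and MLP2 on both Npl3 arrays.

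In the Mex67 precipitate, mRNAs of several FG nucleoporins were higher than in the control, and those of the scaffold were mostly lower, by small amounts. Between these arrays 95% of S. pombe probe sets differed by no more than 0.47 at 42 °C and 0.44 at 25 °C. Those probe sets lie at background level (median 4.00). Their spread therefore does not measure the scatter of expressed genes or the variation between repeated precipitates. At 42 °C 5 of the 33 genes were called higher (15.2%), against a background of 6.97% of all 5650 loci tested, and 2 were called lower (6.06%), against 5.79%. At 25 °C, where few loci differed at all, 2 of 33 were called higher (6.06%), against 0.746% of 5632 loci, and 0 were called lower, against 0.657%. The median over the 33 genes was -0.04 at 42 °C and 0.11 at 25 °C, and over all loci 0.01 and 0.03, so the genes did not move as a block. The controls and Mex67 arrays of the 2 temperatures are separate arrays, while the strains are the same.

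NUP42, also known as RIP1, encodes an FG nucleoporin of the cytoplasmic face that binds Gle1. Its log2 value was 11.22 and 11.34 in the Mex67 precipitates at 42 °C and 25 °C, 8.93 and 8.91 in the Npl3 precipitates, and 9.22 and 9.48 in the controls. Both Mex67 arrays lay above all 4 others. The difference from the control was 2.00 at 42 °C and 1.87 at 25 °C, which is 4.01-fold and 3.65-fold, and it ranked 25 of 5650 and 13 of 5632 loci from the highest.

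NUP100 and NUP116 encode related nucleoporins with GLFG repeats, a form of FG repeat to which Mex67 and Kap95 bind. NUP100 was at 13.53 and 12.90 in the Mex67 precipitates at 42 °C and 25 °C, 10.80 and 10.91 in the Npl3 precipitates, and 11.48 and 11.60 in the controls. NUP116 was at 13.70 and 12.99 in the Mex67 precipitates at 42 °C and 25 °C, 11.73 and 11.78 in the Npl3 precipitates, and 11.82 and 12.02 in the controls. Both genes were thus highest in the heated Mex67 precipitate, second highest in the unheated one, and lowest in the Npl3 precipitates. NUP100 differed from the control by 2.04 at 42 °C and 1.29 at 25 °C, ranks 21 and 20 from the highest. NUP116 differed by 1.88 at 42 °C and by 0.97 at 25 °C, which is just under 2-fold.

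The FG nucleoporins of the central channel had smaller differences in the same direction. NSP1, an FG protein of the central channel and of the cytoplasmic face, was higher in the Mex67 precipitate than in the control by 0.71 at 42 °C and 0.62 at 25 °C. NUP57, which pairs with Nsp1 in the channel, was higher by 0.67 and 0.75. NUP49, the other partner of Nsp1 there, was nearly level at 25 °C, with 0.22 at 42 °C and 0.06 at 25 °C. None of these genes reached 2-fold.

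In the nuclear basket, NUP1, to which import complexes bind as they arrive, was higher by 0.64 at 42 °C and 0.36 at 25 °C, and NUP2, a mobile basket protein, by 0.59 and 0.57. NUP60, which anchors Nup2, was at -0.07 and -0.11. The coiled-coil basket proteins carry no FG stretch, and their genes were at 0.38 and 0.21 for MLP1 and 0.37 and 0.79 for MLP2. The basket thus had 4 of 5 genes above the control at both temperatures, with 0 of 5 called. Over all loci 6.97% were called higher and 5.79% lower at 42 °C, and 0.746% and 0.657% at 25 °C.

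At the cytoplasmic face, GLE1, the activator of Dbp5, was higher by 0.69 at 42 °C and 0.68 at 25 °C, and GLE2, an mRNA export factor that docks on Nup116, by 0.72 and 0.38. NUP159, the docking site of Dbp5, lay near the control at -0.04 and 0.14. NUP82, the non-FG anchor of the cytoplasmic filaments, went the other way at 42 °C. It was at 9.40 and 10.65 in the Mex67 precipitates at 42 °C and 25 °C, 10.03 and 10.14 in the Npl3 precipitates, and 10.38 and 10.54 in the controls. The heated Mex67 array was the lowest of the 6 and the unheated one the highest, with differences from the control of -0.98 and 0.11.

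The outer ring, or Y complex, is a scaffold that coats the pore membrane. All 6 of its genes were below the control at both temperatures in the Mex67 precipitate, from -0.71 (NUP84) to -0.19 (SEH1) at 42 °C and from -0.47 (NUP120) to -0.19 (SEH1) at 25 °C. None of the 6 was 2-fold lower, against 5.79% of all loci at 42 °C and 0.657% at 25 °C. Only NUP84 at 42 °C and NUP120 at 25 °C lay beyond the size within which 95% of S. pombe probe sets differed, which is a background spread only. NUP145 encodes both an FG part and a Y complex part in 1 precursor that cleaves itself, and its mRNA was at -0.29 and -0.20, with the other Y complex genes.

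The inner ring genes were divided. The large scaffold genes were lower: NUP192 was at 10.68 and 11.64 in the Mex67 precipitates at 42 °C and 25 °C, 10.33 and 10.38 in the Npl3 precipitates, and 12.02 and 11.99 in the controls. Its difference between Mex67 and the control was -1.34 at 42 °C and -0.35 at 25 °C. NUP188, its relative in the ring, was at -0.86 and -0.39, NUP157 at -0.45 and -0.35 and its paralogue NUP170 at -0.35 and -0.21. NIC96, which links the ring to the channel proteins, was at 0.22 and 0.45.

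The paralogues ASM4 (also NUP59) and NUP53, linkers that touch the pore membrane, parted at 42 °C. ASM4 was at 12.76 and 11.91 in the Mex67 precipitates at 42 °C and 25 °C, 12.25 and 12.11 in the Npl3 precipitates, and 11.50 and 11.46 in the controls. It was above the control on all 4 arrays of the tagged proteins, and highest in the heated Mex67 precipitate. NUP53 was at 10.46 and 11.10 in the Mex67 precipitates at 42 °C and 25 °C, 10.99 and 11.08 in the Npl3 precipitates, and 10.65 and 10.55 in the controls. The differences between Mex67 and the control were 1.26 and 0.46 for ASM4, and -0.19 and 0.55 for NUP53.

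Among the membrane proteins of the pore, POM152 was the lowest against the control at both temperatures, and the others differed less from it. POM152, a large protein with most of its mass in the lumen of the nuclear envelope, was at 10.96 and 11.35 in the Mex67 precipitates at 42 °C and 25 °C, 10.49 and 10.18 in the Npl3 precipitates, and 11.98 and 11.99 in the controls. All 4 arrays of the tagged proteins lay below both controls. The differences between Mex67 and the control were -1.02 and -0.63. NDC1, shared with the spindle pole body, was at 0.08 and -0.37, and POM34, the small partner of Pom152, at -0.28 and 0.06.

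The import receptor pair also parted. KAP95, the karyopherin beta that carries cargo through FG repeats, was at 13.21 and 12.61 in the Mex67 precipitates at 42 °C and 25 °C, 12.08 and 12.18 in the Npl3 precipitates, and 11.98 and 12.31 in the controls. SRP1, the karyopherin alpha that holds the cargo, was at 11.93 and 12.31 in the Mex67 precipitates at 42 °C and 25 °C, 11.31 and 11.46 in the Npl3 precipitates, and 12.53 and 12.71 in the controls. KAP95 was thus above the control in the Mex67 precipitates, by 1.23 and 0.30, while SRP1 was below it, at -0.59 and -0.40.

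**Figure D2:**
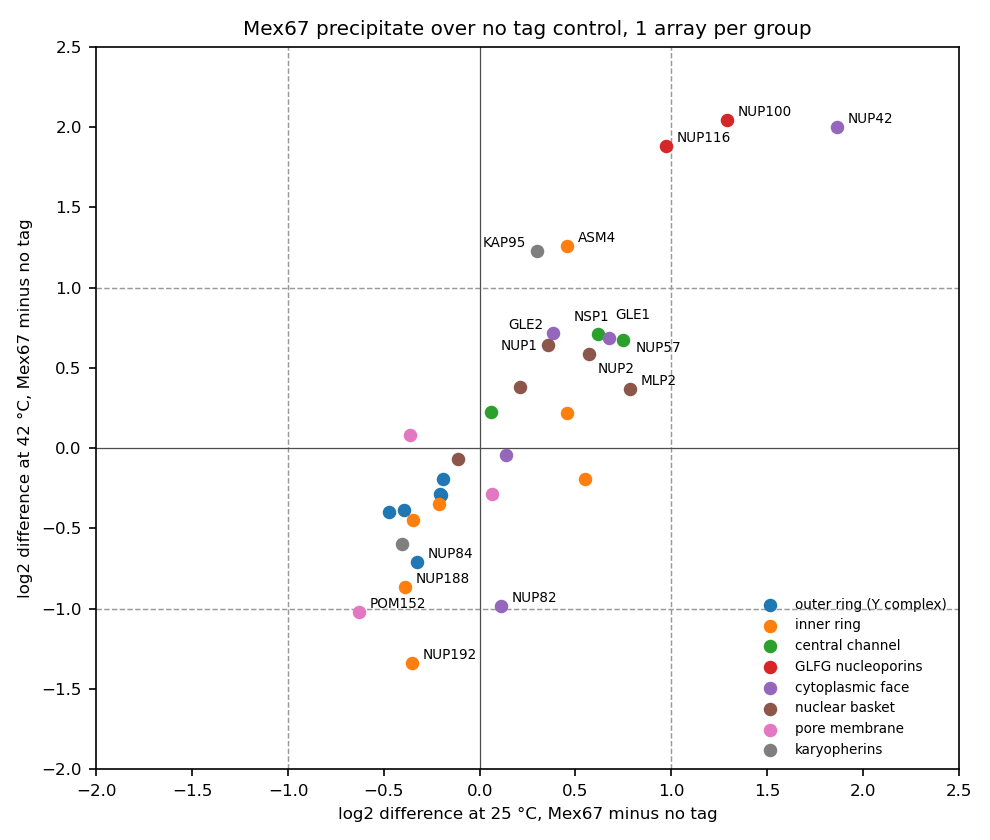
Log2 difference between the Mex67 precipitate and the no tag control for each of the 33 genes at 42 °C (vertical axis) and 25 °C (horizontal axis), coloured by place in the pore. Dashed lines mark 2-fold, and NUP42 and NUP100 lie beyond it on both axes.

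The 2 temperatures gave similar orders of the genes. Of the 33, 15 were above the control at both temperatures, 13 below it at both and 5 on opposite sides. Pearson's r between the 2 sets of differences was 0.86 across the 33 genes and 0.43 across all 5667 loci. It is a description only, since genes are not independent and both sets share the strains. NUP82 had the largest gap between the temperatures, 1.09.

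The genes were then divided by whether textbooks class the protein as an FG nucleoporin, a division made after the values were seen and so given with no test. The 11 FG genes are NSP1, NUP1, NUP2, NUP42, NUP49, NUP57, NUP60, NUP100, NUP116, NUP145 and NUP159, and NUP53 and ASM4, with few such repeats, were left with the others. At 42 °C the median difference between Mex67 and the control was 0.64 over the 11 FG genes and -0.28 over the other 22, with 8 of 11 and 8 of 22 above the control. At 25 °C the medians were 0.57 and -0.20, with 9 of 11 and 10 of 22 above. The FG genes below the control were NUP145, NUP159 and NUP60 at 42 °C, and NUP145 and NUP60 at 25 °C. The 13 scaffold genes of both rings had medians of -0.35 and -0.21.

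**Figure D3:**
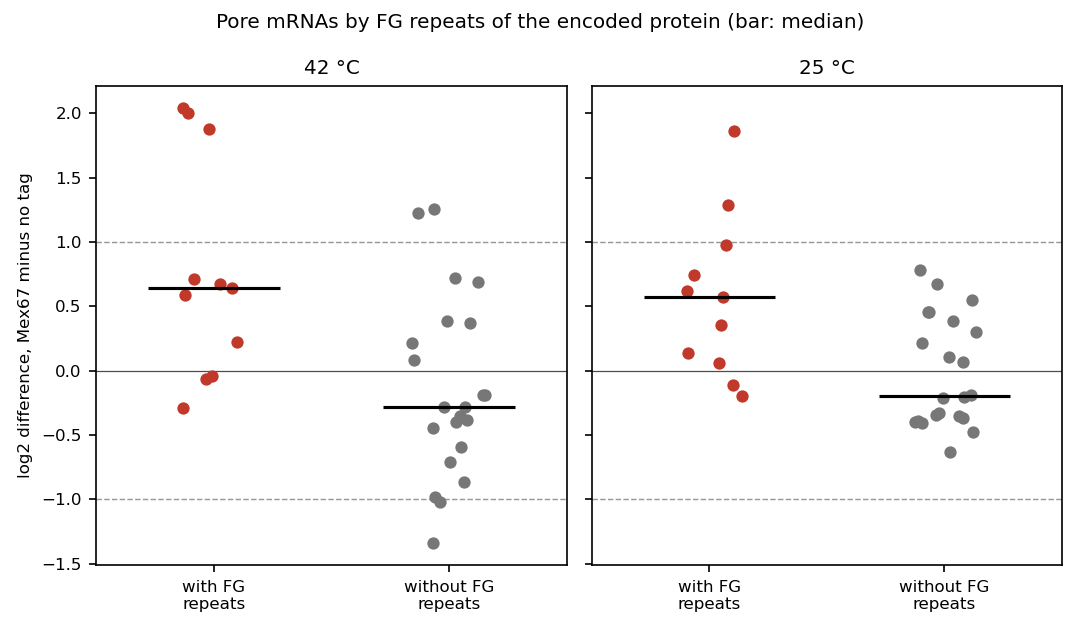
Log2 difference between the Mex67 precipitate and the no tag control for the 11 genes of FG nucleoporins and the other 22 pore genes, at 42 °C (left) and 25 °C (right). Each point is a gene, bars are medians, and dashed lines mark 2-fold. The medians are 0.64 and -0.28 at 42 °C, and 0.57 and -0.20 at 25 °C.

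Other genes of nuclear transport, on lists drawn up beside the 33, did not include any called higher with Mex67. Of 13 other pore-associated genes, such as SEC13 of the Y complex and the helicase DBP5, 0 were called in either direction at either temperature, and the medians were -0.02 at 42 °C and 0.05 at 25 °C. Over all loci the shares called were 6.97% higher and 5.79% lower at 42 °C, and 0.746% and 0.657% at 25 °C, so a count of 0 among so few genes lies near the background. MTR2, the partner of Mex67, was at 0.55 and 0.05. Of 22 genes of the Ran cycle and of other karyopherins, 0 were called higher at either temperature and 19 and 18 lay below the control, with medians of -0.44 and -0.24. Called lower at 42 °C were KAP123, the import receptor of ribosomal proteins, at -1.95, and KAP122 at -1.09.

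The comparison at 42 °C crosses the split in labelling spikes (5.01 against 6.64) and in the actin 3' to 5' difference (0.82 against 0.43), whose part in the result was not tested. At 25 °C the arrays were close in both, with spikes of 6.35 against 6.65 and actin differences of 0.44 against 0.41. With the trend over coding length taken out, NUP42, NUP100, NUP116, ASM4 and KAP95 were still called higher at 42 °C, between 1.01 and 2.00, which is 15.2% of the pore genes against 6.39% of all loci. NUP82 was then called lower at -1.16, beside NUP192 and POM152. At 25 °C NUP116 was then called too, at 1.11.

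In the Npl3 precipitate most pore mRNAs were lower than in the control, while those of the basket proteins MLP1 and MLP2 were higher. At 42 °C 11 of 33 were called lower (33.3%), against a background of 19.4% of 5648 loci, and 2 were called higher (6.06%), against 18.7%. At 25 °C 12 were called lower (36.4%), against 15.1% of 5639 loci, and 2 higher (6.06%), against 18.1%. The medians were -0.68 at 42 °C and -0.64 at 25 °C, against -0.14 and -0.08 over all loci. The same 11 genes were called lower at both temperatures, and SEH1 in addition at 25 °C.

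Coding length has to be read beside these counts. Pore genes are long: 30 of 33 exceed the median of 1224 bp over all loci, and their own median is 2520 bp, from POM34 at 900 bp to MLP1 at 5628 bp. Across 5646 loci with a length, the rank correlation between length and the difference of Npl3 from the control was -0.47 at 42 °C and -0.43 at 25 °C. It was -0.22 and -0.16 across the 33 genes. The 749 loci of at least 2520 bp had medians of -0.82 and -0.68, close to those of the pore genes. With the running median over length subtracted, the medians of the 33 genes became 0.010 and -0.15. At 42 °C 1 gene was then called lower (3.03%), against 11.3% of all loci, and 5 higher (15.2%), against 17.1%. At 25 °C 1 was called lower (3.03%), against 9.02%, and 2 higher (6.06%), against 15.7%. The pore genes thus no longer had more lower calls than the loci as a whole. Both comparisons also cross the split in labelling spikes, 5.40 and 5.22 against 6.64 and 6.65, and in the actin difference, 1.10 and 1.19 against 0.43 and 0.41. Their part in the result was not tested.

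MLP1 and MLP2, of the nuclear basket, departed from this trend. MLP1, the longest of the 33 genes, encodes a filament protein of the basket that holds back unspliced mRNA. It was at 12.50 and 12.72 in the Npl3 precipitates at 42 °C and 25 °C, against 11.31 and 11.36 with Mex67 and 10.93 and 11.15 without a tag. MLP2, its paralogue of 5040 bp, was at 12.70 and 12.61 in the Npl3 precipitates at 42 °C and 25 °C, against 12.13 and 12.21 with Mex67 and 11.76 and 11.42 without a tag. For both genes the Npl3 arrays were the highest of the 6, followed by the Mex67 arrays and then the controls. MLP1 differed between Npl3 and the control by 1.57 at 42 °C and 1.58 at 25 °C, and MLP2 by 0.93 and 1.19. Relative to loci of their length these values were 2.71 and 2.60 for MLP1, and 2.05 and 2.18 for MLP2.

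NUP60, in the basket too, was higher with Npl3 than in the control by 0.57 at 42 °C and 0.36 at 25 °C. NUP1 was at -0.70 and -0.81 and NUP2 at -0.55 and -0.64, so the basket genes did not move together. Relative to loci of their length NUP1 was at 0.040 and -0.19, NUP2 at 0.015 and -0.23, and NUP60 at 1.08 and 0.73. Before that correction 1 of the 5 basket genes was called higher at 42 °C and 2 at 25 °C, against backgrounds of 18.7% and 18.1%.

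**Figure D4:**
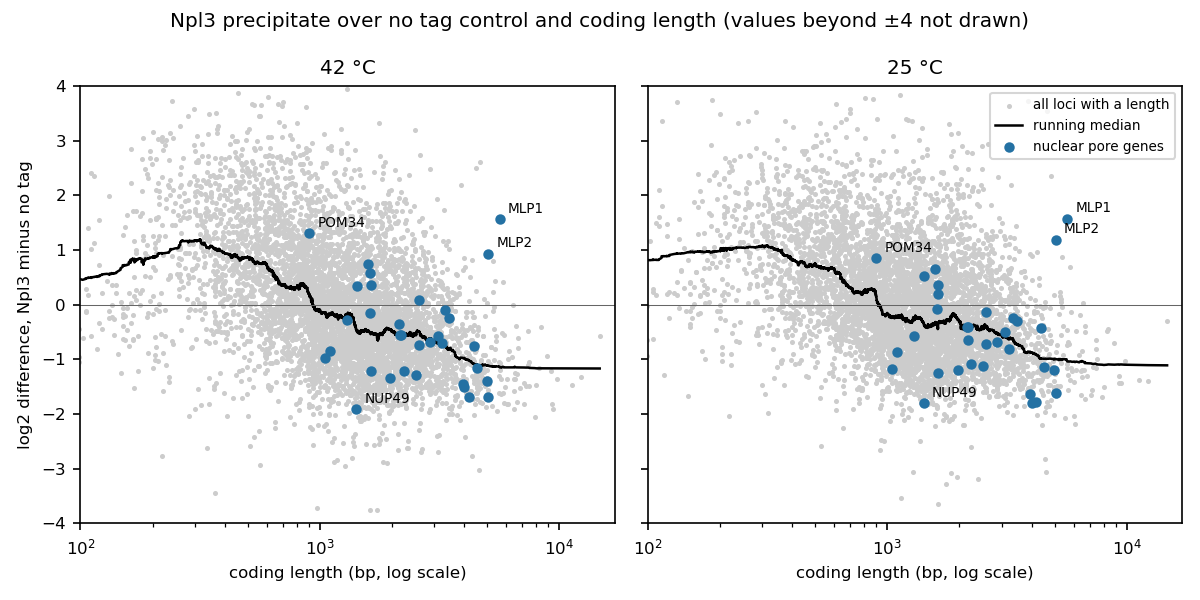
Log2 difference between the Npl3 precipitate and the no tag control against coding length (log axis) at 42 °C (left) and 25 °C (right), for all loci with a length (grey), their running median over 300 loci (line) and the 33 pore genes (blue). Values beyond 4 in either direction are not drawn. MLP1 and MLP2 lie above 0 where the running median is near -1, and NUP49 lies below the line.

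The scaffold genes were low with Npl3. NUP157, an inner ring gene, was at 10.05 and 9.92 in the Npl3 precipitates at 42 °C and 25 °C, against 11.28 and 11.35 with Mex67 and 11.73 and 11.69 without a tag. Its difference from the control was -1.68 and -1.77. Of the 7 inner ring genes 5 were called lower at both temperatures, against 19.4% of all loci at 42 °C and 15.1% at 25 °C. They were NUP192 at -1.69 and -1.62, NUP188 at -1.40 and -1.19, NIC96 at -1.28 and -1.12, NUP170 at -1.17 and -1.14, and NUP157. ASM4 (1587 bp) and NUP53 (1428 bp) were above the control, ASM4 by 0.75 and 0.65 and NUP53 by 0.34 and 0.53.

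In the outer ring, all 6 genes lay below the control. NUP145 was at -1.44 at 42 °C and -1.64 at 25 °C, NUP85 at -1.22 and -1.08 and SEH1 at -0.97 and -1.17, while NUP84, NUP120 and NUP133 lay between -0.58 and -0.25. With the length trend removed, 0 of the 13 scaffold genes were called lower at either temperature. Over all loci the shares were then 11.3% at 42 °C and 9.02% at 25 °C, so a count of 0 among so few genes lies near the background.

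NUP49 was the pore gene furthest below loci of its length. It was at 10.73 and 10.53 in the Npl3 precipitates at 42 °C and 25 °C, against 12.87 and 12.39 with Mex67 and 12.64 and 12.33 without a tag. Both Npl3 arrays lay well below the other 4. The difference from the control was -1.92 and -1.80, and -1.46 and -1.45 with the length trend removed, the single call left among lower genes at each temperature. Its partners in the channel differed: NSP1 was at -0.73 and -0.72, and NUP57 at 0.37 and 0.19.

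The GLFG genes, high with Mex67, were near or below the control with Npl3, NUP100 at -0.68 and -0.69 and NUP116 at -0.09 and -0.24, and NUP42 was at -0.29 and -0.57. At the cytoplasmic face all 5 genes lay below the control at both temperatures, with GLE2 lowest at -0.85 and -0.86. Of these 5, 0 were called, against 19.4% of all loci called lower at 42 °C and 15.1% at 25 °C. These values use the same control arrays as those given for Mex67.

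The membrane genes lay far apart. POM34, the shortest gene of the 33, was at 11.83 and 11.51 in the Npl3 precipitates at 42 °C and 25 °C, against 10.23 and 10.72 with Mex67 and 10.51 and 10.66 without a tag. It was higher with Npl3 than in the control by 1.31 at 42 °C and 0.85 at 25 °C. POM152 was lower at -1.50 and -1.80, and NDC1 at -1.34 and -1.20. Of the import receptors, SRP1 was at -1.22 and -1.25 and KAP95 at 0.09 and -0.13.

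Set directly against each other, a comparison added after the values were seen, the Mex67 and Npl3 precipitates do not need the control arrays. They still differ in strain. Of the 14 mating type and strain marker genes, 0 were called higher with Mex67 and 7 lower at 42 °C, and 0 and 8 at 25 °C. Labelling spikes were at 5.01 against 5.40 at 42 °C, and at 6.35 against 5.22 at 25 °C. The actin differences were 0.82 against 1.10, and 0.44 against 1.19. The 25 °C pair thus crosses the split in both, and its part in the result was not tested. At 42 °C 13 of 33 pore genes were called higher with Mex67 (39.4%), against a background of 22.5%, and 2 lower, against 20.2%. At 25 °C 13 were called higher, against 12.1%, and 1 lower, against 15.2%. Of the 11 FG genes 8 were called higher at each temperature, and of the other 22, 5. The highest were NUP100 at 2.73 and NUP42 at 2.29 at 42 °C, and NUP42 at 2.44 and NUP100 at 1.98 at 25 °C. The lowest were POM34 at -1.60 and MLP1 at -1.19 at 42 °C, and MLP1 at -1.36 at 25 °C. Longer genes had higher values here over all loci (rank correlations of 0.50 and 0.40), so the counts were also taken with that trend removed. At 42 °C 5 pore genes were then called higher (15.2%), against 15.9% of all loci, and 6 lower (18.2%), against 16.7%, so both shares were near the background. At 25 °C 5 were called higher (15.2%), against 7.93%, and 2 lower (6.06%), against 12.9%. Of the 11 FG genes, 4 were then called higher and 1 lower at 42 °C, and 3 and 0 at 25 °C. Of the other 22, 1 was called higher and 5 lower at 42 °C, and 2 and 2 at 25 °C. The FG division was made after the Mex67 values were seen, and the same Mex67 arrays are used here.

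Heat left the pore mRNAs of the control close to where they were. In the no tag precipitate 0 of 33 genes were called in either direction, against a background of 6.69% higher and 2.07% lower among 5647 loci. The median was -0.04, and 0.00 over all loci. MLP2 was highest at 0.34 and NUP60 lowest at -0.58, followed by NUP57 at -0.42 and SEH1 at -0.40. All 7 inner ring genes lay above 0, from 0.03 to 0.31, and 9 of the 11 FG genes below it. Over all loci these values rose with length (rank correlation 0.245), with a median of 0.19 over loci of at least 2520 bp. With the length trend removed, the median of the 33 genes was -0.20, with 28 of them below 0 and again 0 called. Of the 7 inner ring genes 3 were then above 0 and 4 below it, and 10 of the 11 FG genes were below it. Without that removal only NUP60 lay beyond 0.49, the size within which 95% of S. pombe probe sets differed between these arrays. That size is a background spread, and does not show that NUP60 would differ again in a repeat. For scale, 13 of the 20 heat shock chaperones were called higher on the same arrays.

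The Npl3 precipitate was alike in this. Again 0 of 33 genes were called with heat, against 2.11% higher and 1.38% lower among 5634 loci, and the median was -0.10. The range was narrow, from NUP60 at -0.37 and NUP159 at -0.33 to POM152 at 0.30 and POM34 at 0.32. NUP60 was thus the lowest of the 33 in both, and in the Mex67 precipitate it was at -0.54. The spikes were at 5.40 and 5.22 on these arrays.

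In the Mex67 precipitate heat spread the genes further apart. NUP82 alone was called lower, at -1.25, against a background of 12.2% of 5650 loci, and 0 were called higher, against 15.4%. NUP82 lies below the median of both arrays, so a floor set there leaves it out and the count is 0. NUP192 at -0.96 and NUP53 at -0.65 were the next lowest. ASM4 at 0.85, NUP116 at 0.71, NUP100 at 0.63 and KAP95 at 0.61 were the highest. The median was -0.08, against 0.03 over all loci and 0.45 over loci of at least 2520 bp, and -0.47 with the length trend removed. NUP42, called higher than the control in both Mex67 precipitates, hardly differed between these precipitates, at -0.12. The arrays cross the labelling split, with spikes of 5.01 against 6.35 and actin differences of 0.82 against 0.44, and the part of this in the result was not tested.

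**Figure D5:**
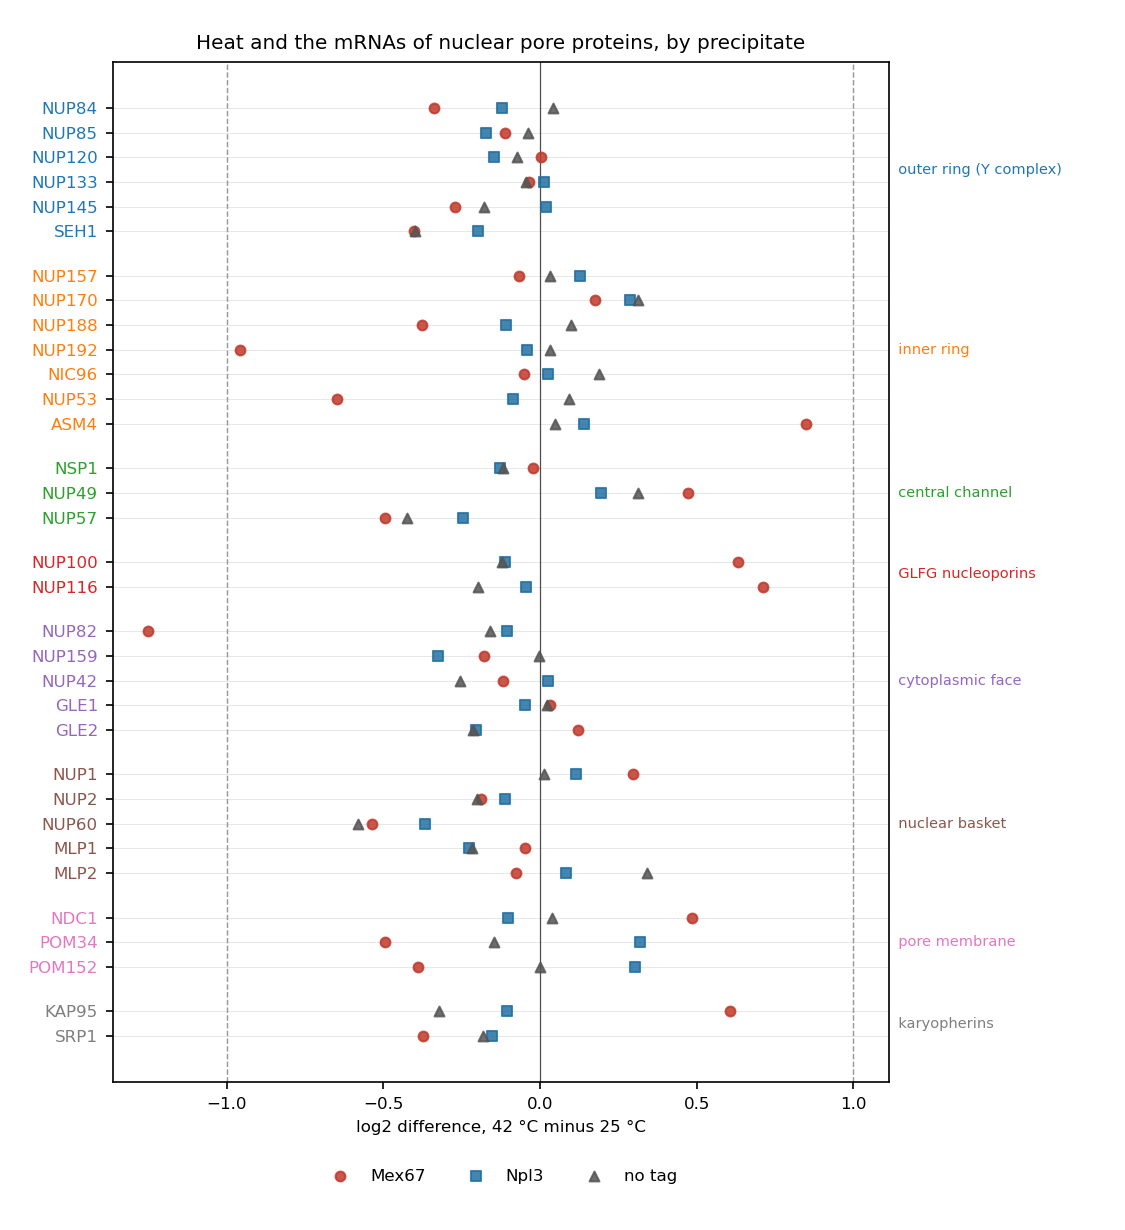
Log2 difference between 42 °C and 25 °C for each of the 33 genes in the Mex67 (circles), Npl3 (squares) and no tag (triangles) precipitates, with rows ordered by place in the pore. Dashed lines mark 2-fold. Npl3 and no tag values lie between -0.58 and 0.34, and those of Mex67 between -1.25 and 0.85.

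Taken over the heat difference of the control, that of the Mex67 precipitate left 1 of 33 genes called lower, NUP82 at -1.09, against a background of 5.4% of 5651 loci, and 0 called higher, against 5.06%. NUP192 followed at -0.99, just under 2-fold, and NUP53 at -0.74. KAP95 at 0.93, NUP116 at 0.91, ASM4 at 0.80 and NUP100 at 0.75 were highest. The median was 0.00, as over all loci. With Npl3, 0 of 33 were called, against 1.13% higher and 4.3% lower among 5649 loci, with values from -0.32 (NUP159) to 0.47 (POM34).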

How the data were processed

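RNA that co-purified with Mex67, with Npl3 or from cells with no tag was hybridised to 1 array for each protein and temperature. The authors deposited normalized log2 values, 1 for each probe set and array. The submitters' processing notes name affy, an R package. How background, normalization and summary were done is not given in the sources used here, nor is the version. Of 10928 probe sets, 5716 are for S. cerevisiae and 4999 for S. pombe. Probe sets of 1 locus were averaged (47 loci have several). Symbols and gene lengths came by locus tag from the RefSeq table of assembly R64 for 5646 of 5667 loci. The lengths are read as coding length since 97.0% of them are multiples of 3. The rest, such as NSP1 at 2590 bp, cannot be coding length alone.

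Differences of log2 values were computed in Python 3.11.15 with pandas 2.3.3. The length trend was the running median over 300 loci ranked by length. The functions were tested on simulated data. Alternatives were the floor, the scaling between arrays, the length trend, probe sets that match several transcripts, and the karyopherins left out. Every pore gene could be named, with the called genes, those nearest to 2-fold and the extremes of each comparison given first. Genes of the other lists were named where called or where a check turned on them. SEC13, DBP5 and MTR2 were named for their roles. The genes and lists were chosen with earlier results of these data known. The number of arrays limits the precision.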

Additional observations from a re-analysis of the deposited data

How the results depend on the processing

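Without a floor, with single-match probe sets or without the karyopherins, every count and median of the pore genes in the 11 comparisons stayed within 1.5 times or within the S. pombe SD. No called gene changed direction under any alternative, but many calls were lost with the length trend removed. Over the 11 comparisons 30 calls of single genes then stayed at 2-fold or more, 37 fell below it and 12 were added. With the length trend removed, Npl3 over no tag gave 5 genes called higher and 1 lower with a median of 0.010 at 42 °C (2, 11 and -0.68 without the removal), and 1 lower with a median of -0.15 at 25 °C (12 and -0.64). Mex67 over Npl3 gave 5 higher, 6 lower and 0.029 at 42 °C (13, 2 and 0.78), and 5, 2 and 0.47 at 25 °C (13, 1 and 0.84). Heat with Mex67 gave 2 lower and -0.47 (1 and -0.08), and over the heat difference of the control 2 lower (1). With a floor at the median of the array, which leaves fewer pore genes, the medians of Mex67 over no tag and over Npl3 at 42 °C were 0.22 and 1.13, and heat with Mex67, alone and over the control, left 0 lower. For heat with Mex67 over the control, centring on S. pombe gave 2 lower, and quantile normalization 2 lower and 1 higher, as NUP192 and KAP95 lie near 2-fold. No paired analysis was possible because each group has 1 array. Low signal did not limit these genes; the single array in each group does.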

Other observations

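Several genes tied to the pore, outside the 33, were higher with Npl3. Of the 13 other pore-associated genes, 6 were called higher and 1 lower in the Npl3 precipitate than in the control at each temperature, against backgrounds of 18.7% and 19.4% at 42 °C and 18.1% and 15.1% at 25 °C. GFD1, a helper of mRNA export at the pore, was at 13.95 and 13.94 in the Npl3 precipitates at 42 °C and 25 °C, against 10.94 and 11.13 with Mex67 and 10.29 and 10.93 without a tag. It was higher with Npl3 than in the control by 3.66 and 3.01. MTR2, the partner of Mex67, was higher by 2.39 and 1.80, and DYN2, the dynein light chain of the cytoplasmic filaments, by 2.66 and 2.17. ULP1, the SUMO protease held at the basket, was higher by 1.32 and 1.55. SEC13, of the Y complex, was lower at -1.19 and -1.08. GFD1, MTR2 and DYN2 are short, with lengths of 567, 555 and 455 bp against a median of 1224 bp, and short loci had higher values in this comparison. With the length trend removed, 5 of the 13 were called higher at 42 °C and 4 at 25 °C, against 17.1% and 15.7% of all loci. Called lower was 1 at each temperature, against 11.3% and 9.02%.

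Of the 22 genes of the Ran cycle and of other karyopherins, 2 were called higher (9.09%) and 4 lower (18.2%) with Npl3 at 42 °C. Over all loci the shares were 18.7% and 19.4%. At 25 °C 2 were called higher (9.09%) and 5 lower (22.7%), against 18.1% and 15.1%. With the length trend removed, 3 of the 22 were called higher (13.6%) and 0 lower at each temperature. Over all loci the shares were then 17.1% and 11.3% at 42 °C, and 15.7% and 9.02% at 25 °C. Before that removal MOG1, a small Ran-binding protein, was at 1.96 and 2.35. CRM1, the main protein export receptor, of 3255 bp, was at -1.02 and -1.10. With heat, KAP123 was at 11.31 at 42 °C and 13.20 at 25 °C in the Mex67 precipitates, against 13.26 and 13.51 in the controls.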
